A study of Mus musculus with 6 samples.

Results

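The genes described here are 10 transcription factors that set or keep the identity of sensory neuron subtypes: Runx1, Runx3, Etv1, Maf, Prdm12, Isl1, Pou4f1, Pou4f2, Tlx3 and Meis2. They were chosen by name for their known roles, with earlier results of these data known, as were the gene lists used further on. Counts over these genes and lists are descriptions and give no independent support. The 10 genes are set beside the 18193 mouse genes that had a probe set with 1 symbol of their own. Each was followed through all probe sets that the platform annotation gave its symbol, and the brightest of them, by its mean log2(signal + 32) over the arrays, stood for the gene. For 8 of the 10 genes the annotation named probe sets, 26 in all, while Prdm12 and Pou4f2 had none and were not analysed here.

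Affymetrix mouse arrays, 6 in all, each measured the RNA of 1 pool of neurons picked from dorsal root ganglia, the sensory neurons whose cell bodies lie beside the spinal cord. The pools carry 3 title codes. L6-R and L3-S each stood for pools of 20 neurons labelled by DiI, a dye carried back from the nerve ending to the cell body, and L3-B stood for pools of 50 control neurons. Each code had 1 pool of big neurons and 1 of medium to small neurons, so that there was 1 array per combination and no replicate array. The labels used here give neither the meaning of the codes, the tissue that received the dye, the strain, the age nor the number of animals. The L3-B pools thus differed from the others in both dye labelling and number of neurons, which cannot be told apart.

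In dorsal root ganglia, Isl1, a LIM homeodomain factor, and Pou4f1, a POU homeodomain factor, act in nearly all sensory neurons, and other factors then divide these neurons into classes. In mice Runx1 drives the diversification of pain, temperature and itch neurons, Prdm12 is needed for pain neurons to form, and Tlx3 is a homeobox factor of the same lineage. Runx3 and the ETS factor Etv1 are needed by proprioceptors, the neurons that sense muscle stretch, while Maf and the homeodomain factor Meis2 act in touch receptors. RUNX proteins bind a short DNA word written TGTGGT, or ACCACA on the other strand, and RUNX genes can carry it near their own starts.

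Words of this kind often lie near a start, so the RefSeq sequence (GRCm38.p6) around the annotated starts of the members whose signals differed most between codes is shown here. Windows of 250 bases before to 50 bases after a start were at hand for 9 of the 10 genes, 12 windows in all, and none for Maf. Both strands were searched for TGTGGT (RUNX), TGACAG (MEIS), CGGAAG (ETS) and TGCTGAC (MAF), and capitals mark the matches found. The Runx1 stretch begins 15 bases after its first start (chr16:92826030-92826059, minus strand), and the other stretches are the 250 bases before the first start of Runx3 (chr4:135120395-135120644, plus strand), Etv1 (chr12:38779832-38780081, plus strand) and Meis2 (chr2:116064620-116064869, minus strand). Each is printed 5′ to 3′ on the strand of its gene.
Runx1: gacctcataaacaACCACAgaACCACAagt
Runx3: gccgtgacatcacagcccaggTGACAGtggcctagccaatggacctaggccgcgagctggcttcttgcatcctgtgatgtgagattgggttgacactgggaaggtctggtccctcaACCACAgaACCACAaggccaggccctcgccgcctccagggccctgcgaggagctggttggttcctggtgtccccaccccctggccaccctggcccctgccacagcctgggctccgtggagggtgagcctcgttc
Etv1: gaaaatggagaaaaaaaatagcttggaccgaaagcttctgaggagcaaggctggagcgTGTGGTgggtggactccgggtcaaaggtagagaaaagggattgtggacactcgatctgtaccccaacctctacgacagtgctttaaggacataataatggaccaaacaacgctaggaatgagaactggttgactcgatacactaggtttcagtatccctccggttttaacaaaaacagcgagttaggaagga
Meis2: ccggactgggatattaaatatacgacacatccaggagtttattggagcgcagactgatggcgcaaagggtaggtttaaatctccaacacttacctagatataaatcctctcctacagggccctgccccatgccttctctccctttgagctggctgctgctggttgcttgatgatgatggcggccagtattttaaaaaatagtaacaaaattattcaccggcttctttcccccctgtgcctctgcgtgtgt

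The Runx1 and Runx3 stretches hold the RUNX word as a close pair, set in an identical run of 18 bases, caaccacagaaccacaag, where Runx1 has its pair 28 to 41 bases after the start. This run is the longest shared by the first Runx1 and Runx3 windows, so its presence in both was fixed in advance. On either strand it was found in 4 of 32851 windows of all genes, those of Runx1, Runx3, Runx2 and Gm16225. The single word TGTGGT was found in 16.8% of windows, a share not comparable with that of a run of 18 bases. The Runx3 stretch also holds TGACAG and the Etv1 stretch holds 1 RUNX word, at base -192 from the start. The Meis2 window holds none of the 4 words, nor do those of Isl1, Tlx3, Prdm12 and Pou4f2. The second windows of Runx1 and Runx3 hold none either. The Runx1 stretch was cut to show its pair, and the bases before that start hold none of the words. The Pou4f1 window has 1 TGACAG, a word found in 19.2% of all windows, and the second Etv1 window has TGCTGAC, found in 4.67% of them. CGGAAG was found in 16.9% of all windows and in no window of the 9 genes that had one. A match describes the letters and is not evidence of binding.

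Signals are the deposited linear intensities, and a signal under 32 is treated as background. All 9 markers of dorsal root ganglion neurons had a signal of 32 or more on every array, so the labelled cell type was present in each pool. The share of probe sets under 32 was 55.3% to 59.5% per array. The 3′ to 5′ signal ratio of the Actb control probes, a measure of RNA length, was 8.31 and 8.42 on the L6-R arrays, 5.42 and 12.0 on the L3-S arrays, and 13.9 and 3.73 on the L3-B arrays. Differences between codes were fitted with limma over 9097 genes, the upper 50% by mean log2(signal + 32), in 1 model of code and size class, and given as log2 differences with their standard error and a Benjamini-Hochberg adjusted p with a threshold of 0.05. Of the 8 genes with probe sets, 6 were in that fit (Runx1, Maf, Isl1, Pou4f1, Tlx3 and Meis2), Runx3 was too dim, and the Etv1 probe sets carried a second symbol. In pools of cells, fewer cells of a type and less RNA per cell cannot be told apart.

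**Figure D1:**
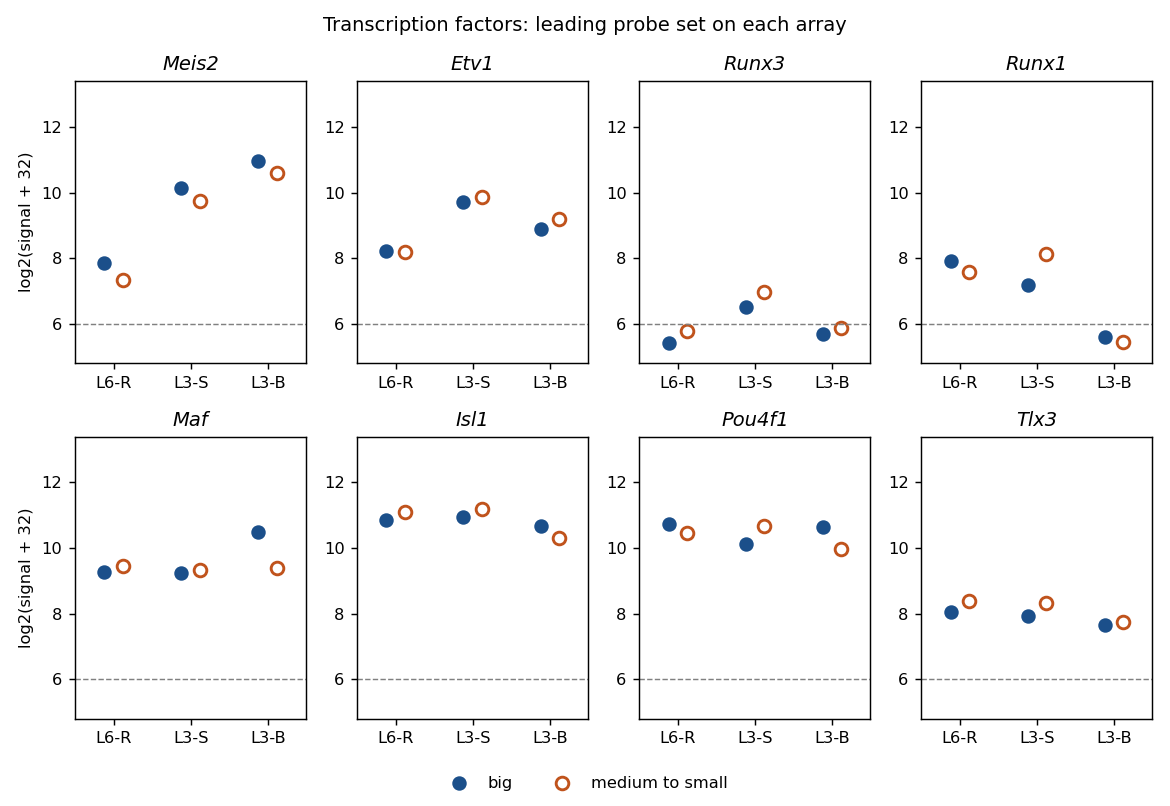
Vertical axes give log2(signal + 32) of the leading probe set of each of the 8 transcription factors, 1 point per array, with filled points for big and open points for medium to small neurons, codes along the horizontal axes and a dashed line at a signal of 32. Meis2 and Etv1 are lowest on the 2 L6-R arrays, and both L3-B points lie under the line for Runx1.

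Meis2, a touch receptor factor on chromosome 2, had the largest code difference of the 6 factors tested. Its leading probe set (1457632_s_at) gave signals of 197 in big and 130.4 in medium to small L6-R neurons. The L3-S pools gave 1094 and 827, and the L3-B pools 1969.7 and 1504. The 3 codes did not overlap, and L6-R was the lowest of them in both size classes. Meis2 was 5.10-fold lower in L6-R than in L3-S (log2 difference -2.35 ± 0.22 SE, limma adjusted p = 0.00152), with -2.30 between the big pools and -2.40 between the medium to small pools. This was the 1 call among the 6 factors tested in that comparison, in which 3.18% of all genes tested were called. Against L3-B, Meis2 was 9.09-fold lower in L6-R (-3.18 ± 0.22 SE, limma adjusted p = 0.000219), where 7.51% of all genes were called. Between L3-S and L3-B the difference was -0.83 ± 0.22 SE and did not pass the test (limma adjusted p = 0.155), though both pairs gave -0.83 or -0.84. The comparisons share arrays and are not independent of each other.

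Of the 4 Meis2 probe sets, 1 (1440091_at) stayed under 32 on every array. The other three ran in the same direction. Probe set 1417129_a_at had 76.3 and 63.5 in L6-R, against 466 and 446 in L3-S and 514 and 831 in L3-B. Probe set 1447861_x_at had 42.9 and 21.2 in L6-R, against 249 and 194 in L3-S and 409 and 293 in L3-B. In both, each L6-R signal lay below every L3-S and L3-B signal. When each of 45037 probe sets was tested on its own, 0.0533% of them were called between L6-R and L3-S and 0.617% between L6-R and L3-B. The leading probe set was among those called between L6-R and L3-S (limma adjusted p = 0.0395), while 1447861_x_at (-1.998, limma adjusted p = 0.0537) and 1417129_a_at (-2.26, limma adjusted p = 0.0799) were not. Between L6-R and L3-B all 3 passed, with differences of -3.18, -2.58 and -2.75 and limma adjusted p of 0.0153, 0.0184 and 0.0249.

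**Figure D2:**
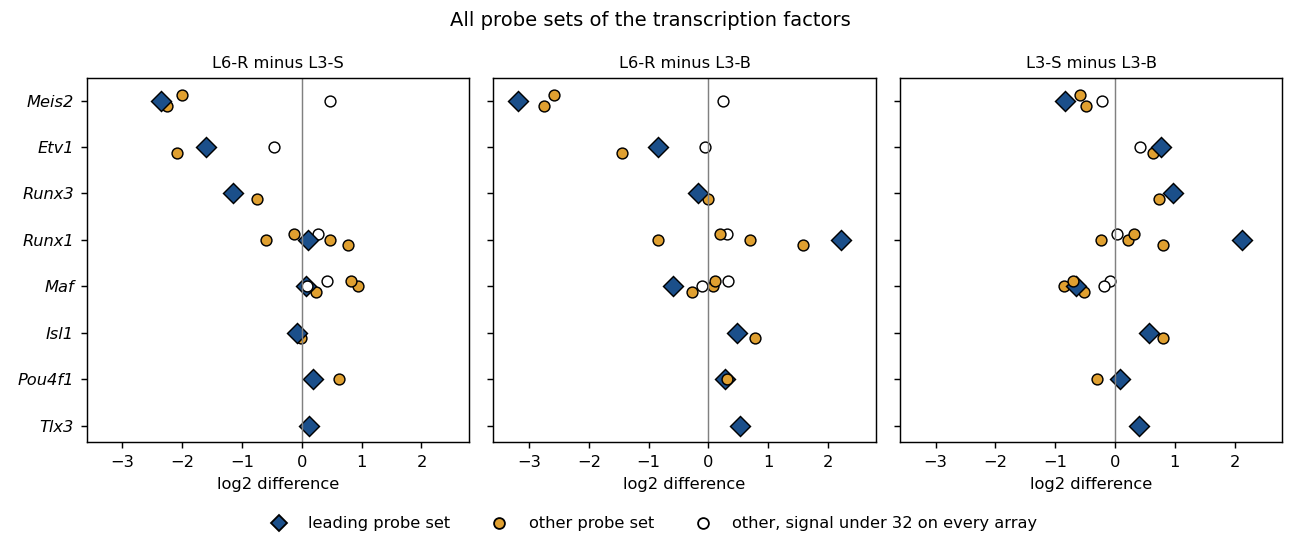
Horizontal axes give the fitted log2 difference of every probe set of the 8 factors in each comparison of codes, without errors, with diamonds for the leading probe set, filled circles for others and open circles for those with a signal under 32 on every array. The 3 brighter Meis2 probe sets lie together at -1.998 or lower for L6-R minus L3-S, while the Runx1 probe sets spread from -0.84 to 2.22 for L6-R minus L3-B.

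Runx1, the factor of pain and temperature neurons on chromosome 16, was by its leading probe set higher in both sets of dye-labelled pools than in the control pools. Its leading probe set (1440878_at) gave 209.7 in big and 157.5 in medium to small L6-R neurons. It gave 112 and 247 in L3-S, and only 16.6 and 11.4 in L3-B. Both L3-B signals were under background and each of the other signals was above 100. By the geometric mean of the pools of each code, Runx1 was at least 5.68-fold higher in L6-R and at least 5.19-fold higher in L3-S than in L3-B. Here L3-B was set at the background of 32. The bounds hold for these means and not for each pool, as the medium to small L6-R and big L3-S signals lay below them. On the log2(signal + 32) scale, which understates changes of low signals, the difference was 2.22 ± 0.33 SE for L6-R (limma adjusted p = 0.00495) and 2.13 ± 0.33 SE for L3-S (limma adjusted p = 0.0241). Between L3-S and L3-B 1.02% of all genes were called, and Runx1 was the 1 call among the 6 factors. Runx1 entered this fit through its L6-R and L3-S signals, since both L3-B values lay under the lowest mean admitted, so the count gives no support of its own. With no filter on dim genes the L3-S call was lost (limma adjusted p = 0.122). In all it was lost under 5 of 16 alternatives, not all of which were separate fits. Among the 5 was the test without the medium to small L3-B array, where the difference was 1.89.

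Between L6-R and L3-S, Runx1 was higher by 0.75 in the big pools and lower by 0.56 in the medium to small ones, and the fitted difference of 0.10 did not pass the test (limma adjusted p = 0.927). Probe sets of Runx1 did not all run alike. Probe set 1422864_at had 111 and 79.8 in L6-R, 11.3 and 93.8 in L3-S, and 13.3 and 7.74 in L3-B. Probe set 1452530_a_at went the other way, with 3.21 and 3.06 in L6-R, against 33.7 and 28.1 in L3-B, a difference of -0.84 where the leading one gave 2.22. All of its signals were close to or under the background. The remaining Runx1 probe sets were at or under 41.2 on every array, apart from 88.4 for 1422865_at in the big L6-R pool. Probe sets 1422864_at and 1422865_at are annotated to a RefSeq transcript of Runx1, while the leading one is not. Against L3-B, both were lower in the big L3-S pool and higher in the medium to small one. There 1422865_at had 3.19 and 41.2 in L3-S, and 22.7 and 2.57 in L3-B. In the test of every probe set, the leading probe set itself did not pass between L6-R and L3-B (limma adjusted p = 0.0796).

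Markers of non-neuronal cells and of neuron classes also differed between these pools. Of all genes tested, 3.18% were called for L6-R against L3-S, 1.02% for L3-S against L3-B and 7.51% for L6-R against L3-B, the shares beside which the marker counts stand. The summed signal of 12 glial genes was 15361 and 21359 in L6-R, 13979 and 17537 in L3-S, and 12958 and 12014 in L3-B, and Mag and Pou3f1 stayed under 32 everywhere. S100b, which was not called, made up 5114 and 4918 in L6-R, 5149 and 5753 in L3-S, and 6832 and 5546 in L3-B. Of the 9 glial genes tested, Apoe, Sox10, Mbp and Fabp7 were higher in L6-R than in L3-B, and Apoe alone was higher in L3-S than in L3-B. The sum of 11 connective tissue and vessel genes was 1157 and 1927 in L6-R, 1469.6 and 1571 in L3-S, and 466 and 367 in L3-B. Col1a1, Pecam1 and Cdh5 stayed under 32, while of the 4 tested Dcn, Rgs5 and Col1a2 were higher in L6-R and Rgs5 in L3-S. Of 11 blood and immune genes, 8 stayed under 32 everywhere, Ptprc, Cd68 and Aif1 among them, and the sums were 257 and 408 in L6-R, 221 and 148 in L3-S, and 196 and 146 in L3-B. The sum of 5 markers of peptidergic pain neurons was 7555 and 5512 in L6-R, 2245 and 1772 in L3-S, and 238 and 141 in L3-B. Tac1 alone made up 5435 and 4090 in L6-R, 1758 and 1429 in L3-S, and 167 and 74.8 in L3-B. Of these 5, 4 were higher in L6-R than in L3-S, 2 in L3-S than in L3-B and 5 in L6-R than in L3-B. Trpv1 and Trpa1 among them entered the fit only through their L6-R signals. The counts that involve L6-R therefore give no support of their own. A list of 9 genes of small neurons outside the peptidergic class summed to 11955 and 9273.5 in L6-R. It summed to 7950 and 8316 in L3-S, and to 10019 and 10445 in L3-B. Both L3-B sums thus lay above both L3-S sums, the reverse of the peptidergic order. Ret, which was not called, made up 4150 and 3775 in L3-B and 2198 and 2187 in L3-S. P2rx3 went the other way, with 2315 and 2321 in L3-B and 2473 and 2392 in L3-S. Among the 7 genes of that list tested, Scn10a alone was called, and only as higher in L6-R than in L3-B. The sum of 8 markers of large myelinated-fibre neurons was 13945 and 11954 in L6-R, 18328 and 20866 in L3-S, and 22041 and 19486 in L3-B, of which Nefh, a neurofilament that was not called, made up 12609 in the big L3-B pool. Of the 7 tested, Cacna1h and Ntrk2 were higher and Pvalb, Ntrk3, Vamp1 and Scn1a lower in L6-R than in L3-B. Pvalb and Vamp1 were lower in L6-R than in L3-S, and Pvalb and Cacna1h higher in L3-S than in L3-B. The part of these cells in the Runx1, Meis2 and Etv1 results was not tested.

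Etv1, the ETS factor of proprioceptors on chromosome 12, was lowest in L6-R and highest in L3-S. Its leading probe set (1450684_at) gave 264 and 260.5 in L6-R, 812 and 908 in L3-S, and 440.1 and 552 in L3-B. The 3 codes did not overlap. Its probe sets also carry the symbol of the pseudogene Gm5454, so the signal of the 2 genes cannot be separated by symbol. The accession annotated to 2 of the 3 probe sets is a RefSeq transcript of Etv1, and with such probe sets assigned by accession, a choice made after seeing the data, Etv1 was 3.03-fold lower in L6-R than in L3-S (-1.60 ± 0.22 SE, limma adjusted p = 0.00835). In that fit of 9164 genes 3.18% were called between L6-R and L3-S. Without the medium to small L6-R array the call was lost (-1.48, limma adjusted p = 0.0759), as it was in the test of every probe set (limma adjusted p = 0.0822). Etv1 differed by 0.76 ± 0.22 SE between L3-S and L3-B (limma adjusted p = 0.218, 1.01% of genes called) and by -0.84 ± 0.22 SE between L6-R and L3-B (limma adjusted p = 0.0611, 7.44% called). The second probe set, 1422607_at, had 132 and 112 in L6-R, 535 and 723 in L3-S, and 326 and 459 in L3-B, the same order of codes, and 1445314_at stayed under 32.

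Runx3, the RUNX factor of proprioceptors on chromosome 4, was above background in the L3-S pools only. Its leading probe set (1440275_at) gave 10.6 and 22.7 in L6-R, 59.2 and 94.1 in L3-S, and 19.5 and 26.2 in L3-B. Its mean of 6.04 lay under the lowest value that entered the fit, 6.41. Set against the background of 32, the geometric mean of the L3-S signals was at least 2.33-fold higher than that of either other code. The big L3-S pool alone lay below that mean. With all 18193 genes in the fit, the differences did not pass, at -1.15 ± 0.20 SE for L6-R against L3-S (limma adjusted p = 0.0769, 0.588% of genes called) and 0.97 ± 0.20 SE for L3-S against L3-B (limma adjusted p = 0.207, 0.077% called). The second probe set, 1421467_at, had 3.02 and 3.93 in L6-R, 20.6 and 35.4 in L3-S, and 4.98 and 2.75 in L3-B. Only its medium to small L3-S signal was above 32.

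**Figure D3:**
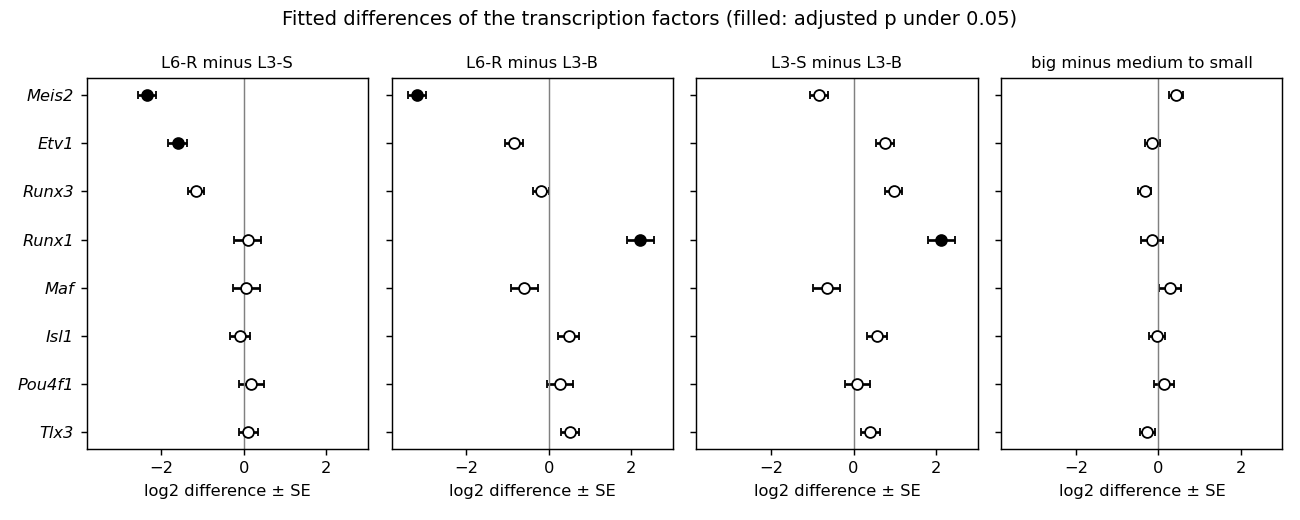
Points give the fitted log2 difference of each factor in the comparisons of codes and of size classes, with bars of 1 standard error to either side, filled where the adjusted p is under 0.05 (Etv1 by accession, Runx3 with all genes in the fit). Meis2 lies at -3.18 and Runx1 at 2.22 for L6-R minus L3-B, while Isl1, Pou4f1 and Tlx3 have no filled point.

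Isl1 and Pou4f1, the factors shared by most sensory neurons, passed the test in no comparison. Isl1 (1450723_at, chromosome 13) gave 1823 and 2171 in L6-R, 1946 and 2292 in L3-S, and 1616 and 1238 in L3-B. All L6-R and L3-S signals were above both L3-B signals, yet the differences from L3-B were 0.48 ± 0.25 SE for L6-R (limma adjusted p = 0.310) and 0.57 ± 0.25 SE for L3-S (limma adjusted p = 0.491). Its second probe set, 1422720_at, had 412 and 706 in L6-R, 474 and 636 in L3-S, and 262 and 344 in L3-B, again with both L3-B signals the lowest. Pou4f1 (1429667_at, chromosome 14) gave 1671 and 1371 in L6-R, 1092 and 1609 in L3-S, and 1580.4 and 975 in L3-B. The codes overlapped, and its differences were 0.19 ± 0.30 SE for L6-R against L3-S (limma adjusted p = 0.830), 0.09 ± 0.30 SE for L3-S against L3-B (limma adjusted p = 0.984) and 0.28 ± 0.30 SE for L6-R against L3-B (limma adjusted p = 0.659). These errors leave room for differences in either direction. The second probe set, 1429668_at, had 386 and 290.1 in L6-R, 199 and 215 in L3-S, and 269 and 255 in L3-B. There the codes did not overlap, but no difference passed in the test of every probe set, with 0.62 ± 0.20 SE for L6-R against L3-S (limma adjusted p = 0.415) and -0.30 ± 0.20 SE for L3-S against L3-B (limma adjusted p = 0.843), which is opposite in sign to the leading probe set.

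Tlx3 (1450806_at, chromosome 11), the homeobox factor of the pain lineage, gave 235 and 306 in L6-R, 209 and 286 in L3-S, and 172 and 183 in L3-B. Both dye-labelled codes lay above L3-B on every array, by 0.52 ± 0.22 SE in L6-R (limma adjusted p = 0.223) and 0.41 ± 0.22 SE in L3-S (limma adjusted p = 0.640), and neither passed the test. Maf (1447849_s_at, chromosome 8), a factor of touch receptors, gave 583 and 664 in L6-R, 575 and 615 in L3-S, and 1405 and 641 in L3-B. A single array, that of big L3-B neurons, stood apart. The Maf difference was -0.59 ± 0.33 SE between L6-R and L3-B (limma adjusted p = 0.346), 0.03 without that array and -1.20 without the other L3-B array (limma adjusted p = 0.0291). A second Maf probe set of similar signal, 1456060_at, had 900.2 and 766 in L6-R, 475 and 435 in L3-S, and 769.9 and 756 in L3-B. There the L3-S pools were the lowest, with 0.83 for L6-R against L3-S (limma adjusted p = 0.259 in the test of every probe set), so the 2 brightest Maf probe sets did not show the same order of codes.

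Between size classes no factor was called. Of the 6 tested, 0 passed between big and medium to small pools in limma, where 0% of all genes were called and 320 of 9097 had an unadjusted p under 0.05. By leading probe sets, Meis2 was the 1 factor with an unadjusted p under that value (0.42 ± 0.18 SE, limma adjusted p = 0.998). It was higher in the big pool in 3 of 3 codes, by 0.50 in L6-R, 0.39 in L3-S and 0.38 in L3-B. Its second probe set, 1417129_a_at, gave -0.14 by size, with -0.66 in L3-B. Tlx3 was lower in the big pool in 3 of 3 codes, with a fitted difference of -0.27 ± 0.18 SE, and so was Runx3 (-0.33 ± 0.16 SE with all genes in the fit). The leading probe sets of Runx1, Maf, Isl1, Pou4f1 and Etv1 changed sign between codes. The second Isl1 probe set, 1422720_at, was lower in the big pool in 3 of 3 codes (-0.50 ± 0.16 SE, limma adjusted p = 0.982 in the test of every probe set). Over the 6 factors the median difference was 0.05 by size, 0.08 for L6-R against L3-S, 0.25 for L3-S against L3-B and 0.38 for L6-R against L3-B, beside all-gene medians of -0.02, -0.01, 0.03 and 0.02.

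Cofactors and relatives of these factors were followed beside them. Of 25 such genes listed, 21 were on the platform and 15 were tested. Ldb2, a LIM-domain binding protein that pairs with factors of the Isl1 type, was the 1 called, in a comparison where 7.51% of all genes were called, so a count of 1 in 15 is near the share over all genes. Ldb2 had 230 and 257 in L6-R, 79.7 and 203 in L3-S, and 53.2 and 47.8 in L3-B, and was higher in L6-R than in L3-B (1.74 ± 0.30 SE, limma adjusted p = 0.0111). None passed in the other comparisons, with Pbx3, a homeodomain partner of MEIS proteins, nearest between L6-R and L3-S (-1.06, limma adjusted p = 0.115) and Cbfa2t3, a co-repressor, nearest between L3-S and L3-B (1.12, limma adjusted p = 0.0823). The list's medians were -0.03 for L6-R against L3-S, 0.29 for L3-S against L3-B and 0.16 for L6-R against L3-B.

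Among 29 other transcription factors of sensory neuron development, 28 were on the platform and 15 were tested. Sox11, a factor of young and of injured neurons, had 709 and 873 in L6-R, 122 and 52.5 in L3-S, and 13.0 and 78.6 in L3-B. It was higher in L6-R than in L3-S (2.84 ± 0.43 SE, limma adjusted p = 0.0119) and than in L3-B (3.54 ± 0.43 SE, limma adjusted p = 0.00218). Zeb2, a zinc finger factor, had 554 and 344 in L6-R, 195 and 191 in L3-S, and 132 and 175 in L3-B, and was higher in L6-R than in L3-B (1.35 ± 0.27 SE, limma adjusted p = 0.0218). None passed between L3-S and L3-B, where Onecut2 came nearest (0.41, limma adjusted p = 0.619). The list's medians were 0.23, 0.12 and 0.39 in the order of comparisons used above.

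Genes of sensory neuron subtypes, among them genes known in mice to depend on these factors, were the third list followed. It shares many genes with the marker lists above, among them Pvalb, Ntrk2, Ntrk3, Trpv1, Trpa1, Tac1 and Scn10a. Of the called genes of this list, Cbln2 alone was not counted there, so the calls are largely the same ones. Of 28 listed, 24 were on the platform and 19 tested. Pvalb, a calcium-binding protein of proprioceptors, had 69.1 and 31.9 in L6-R, 2083.5 and 3413 in L3-S, and 723 and 756 in L3-B. It was lower in L6-R than in L3-S (-5.07 ± 0.32 SE, limma adjusted p = 0.000566) and than in L3-B (-3.26 ± 0.32 SE, limma adjusted p = 0.000801), and higher in L3-S than in L3-B (1.81 ± 0.32 SE, limma adjusted p = 0.0435). Its highest pools were the L3-S pools, as with Etv1 and Runx3. Ntrk3, the receptor for neurotrophin-3 that Runx3 helps maintain in mouse proprioceptors, had 505 and 448 in L6-R, 1155 and 791 in L3-S, and 2243 and 2087 in L3-B, an order unlike that of Runx3 and like that of Meis2. It was lower in L6-R than in L3-B (-2.11 ± 0.23 SE, limma adjusted p = 0.00134), and was singled out after its values were seen.

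**Figure D4:**
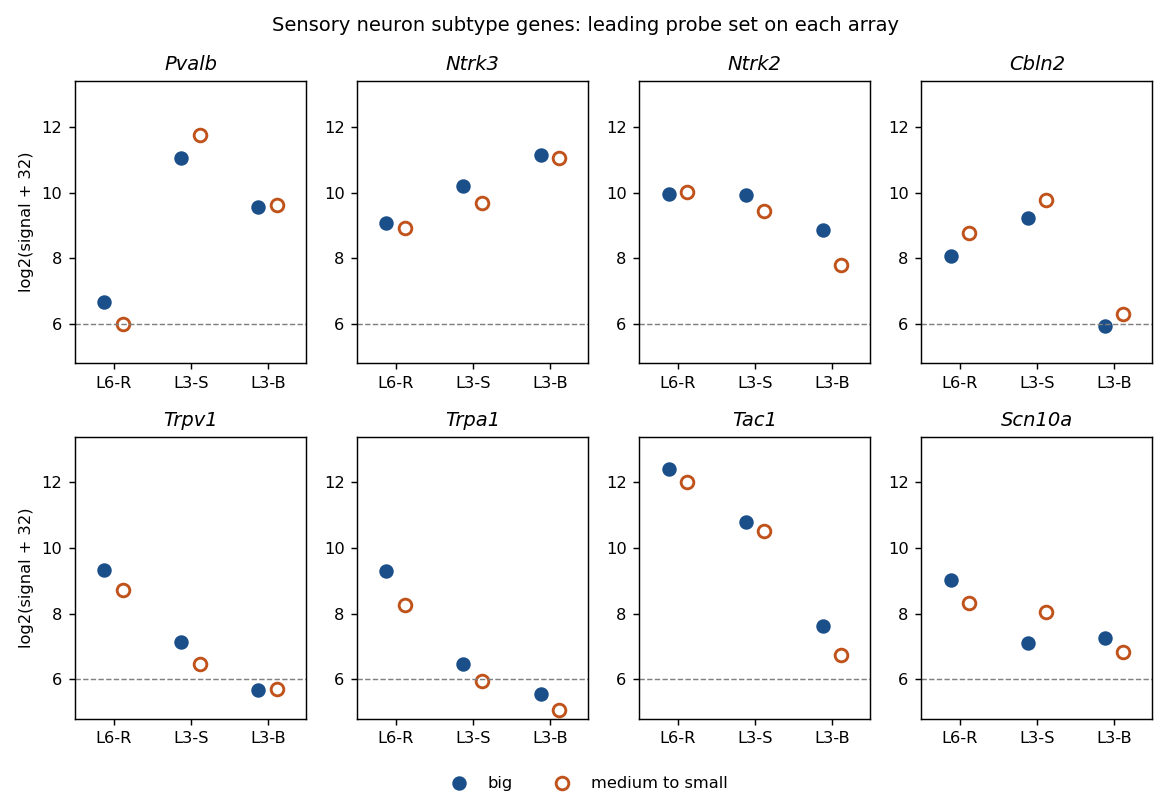
Vertical axes give log2(signal + 32) of 8 sensory neuron subtype genes, 1 point per array, with filled points for big and open points for medium to small neurons, codes along the horizontal axes and a dashed line at a signal of 32. Pvalb is lowest in L6-R and highest in L3-S, and Trpv1 and Tac1 are highest in L6-R and lowest in L3-B.

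Some pain neuron genes of the same list were highest in L6-R and lowest in L3-B, and others were not. Trpv1, the capsaicin receptor channel, had 616 and 392 in L6-R, 108 and 56.1 in L3-S, and 18.7 and 19.6 in L3-B. Tac1, the precursor of substance P, had 5435 and 4090 in L6-R, 1758 and 1429 in L3-S, and 167 and 74.8 in L3-B. Trpa1, an irritant-gated channel, had 600.5 and 274 in L6-R, 56.1 and 30.2 in L3-S, and 14.98 and 1.52 in L3-B. All 3 were higher in L6-R than in L3-S, with differences of 2.24 for Trpv1 (limma adjusted p = 0.00367), 1.55 for Tac1 (limma adjusted p = 0.0136) and 2.57 for Trpa1 (limma adjusted p = 0.00155). Calcb, a peptide of the calcitonin family in pain neurons, did not pass between any codes, with 2424 and 2974 in L6-R, 2291 and 3266 in L3-S, and 3922 and 1755 in L3-B, while the opioid receptor Oprm1 stayed under 32 on every array. Mrgpra3, an itch receptor, was too dim for the fit, with 8.09 and 193 in L6-R, 68.4 and 6.96 in L3-S, and 17.5 and 20.6 in L3-B. These 3 were picked after their values were seen. Between L6-R and L3-S, 3 of the 19 were thus higher and 2 lower, Pvalb and Cbln2, a secreted synapse organiser (-1.09, limma adjusted p = 0.0402), where 3.18% of all genes were called. Cbln2 had 236 and 399.8 in L6-R, 570.3 and 844 in L3-S, and 29.1 and 46.7 in L3-B. Between L3-S and L3-B, with 1.02% of all genes called, 3 were higher (Cbln2, Tac1 and Pvalb) and 0 lower. Between L6-R and L3-B, with 7.51% called, 6 were higher, namely Tac1, Trpa1, Trpv1, Cbln2, Ntrk2 and Scn10a, and 2 lower, Pvalb and Ntrk3. Without their L6-R signals, Trpv1 and Trpa1 would have lain under the lowest mean admitted to the fit. The counts of this list that involve L6-R therefore give no support of their own. The list's medians were 0.30, 0.40 and 0.75.

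The genes whose log2(signal + 32) followed a called factor most closely over the 6 arrays were taken from the 9097 tested, as a description with no test, since arrays of 1 code share its differences. For Meis2 these were Stk39, a kinase (Pearson r = 0.996), Krt222, a keratin (r = 0.996), and F2r, a thrombin receptor (r = 0.995). F2r had 753 and 608 in L6-R, 2881 and 2542 in L3-S, and 4770.1 and 4794 in L3-B, lowest in L6-R like Meis2. For Runx1 they were Arpin, an inhibitor of actin branching (r = 0.993), Ahnak, a large scaffold protein (r = 0.988), and Litaf, a lysosomal membrane protein (r = 0.987). Ahnak had 484 and 481 in L6-R, 298 and 583 in L3-S, and 131 and 85.1 in L3-B, with the medium to small L3-S pool highest, as for Runx1.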

How the data were processed

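Each array measured total RNA of 1 neuron pool, purified with a PicoPure kit, per the labels. The values that the authors deposited are linear intensities of 45037 probe sets, beside 64 controls. After 2% of values had been trimmed at either end, all arrays had a mean of 150, so the arrays were treated as scaled and no further normalization was applied. How the authors summarised and scaled the probes is not given in the sources used here, and no detection calls were used.

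Probe sets were named from the platform annotation (34945 with 1 symbol, 932 with several, 9160 with none). Values were transformed as log2(signal + 32), and the upper 50% of 18193 genes by mean (9097 genes) were tested in R 4.3.3 with limma 3.58.1 (lmFit and eBayes, code plus size class, 2 residual and 6.46 prior degrees of freedom, two-sided). With 1 array per code and size class, the error comes from the residuals of the additive fit, that is, from how far size differences vary between codes. The p-values measure no spread between like pools, since no pool was repeated. They measure none between animals either, since separate animals are not stated. The small number of arrays limits the precision. The fitting step was tested on data simulated with independent noise and no departure from the additive model. That checks the calculation, and not how well the model holds for these pools.

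The members and gene lists were chosen with earlier results of these data known. Named from each list were genes past the threshold, at most 4 per comparison by smallest p, or the nearest where none passed, and for each called factor the 3 genes of closest course. Alternatives changed the normalization, pseudocount, filter, probe set choice, prior, array weights, the Actb ratio as covariate, the samples in the fit, and each array left out. Sequences are from RefSeq.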

Additional observations from a re-analysis of the deposited data

Results flagged for a closer look

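By leading probe sets, 2 factors moved in opposite directions between codes in the 2 size classes, by more than 0.5 in each. Opposite moves with 1 of them under 0.5 were left aside. These were Maf in L6-R against L3-B (-1.22 and 0.05) and Pou4f1 in L6-R against L3-S (0.60 and -0.23). Runx1 in L6-R against L3-S differed by 0.748 in log2(signal + 32) between the big pools and by -0.558 between the medium to small pools. Its big L3-S signal of 112 lay below, and its medium to small L3-S signal of 247 above, both L6-R signals of 209.7 and 157. Pou4f1 in L3-S against L3-B differed by -0.521 between the big pools and by 0.704 between the medium to small pools. In each case the difference between size classes was not tested, because 1 array stood for each code and size class.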

How the results depend on the processing

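Meis2 passed between L6-R and L3-S (-2.56 to -1.54) and between L6-R and L3-B (-3.42 to -2.07) under each of 18 alternatives. Runx1 passed between L6-R and L3-B under 15 of 16, and between L3-S and L3-B under 11 of 16, failing with the larger pseudocount (1.08, adjusted p = 0.0973), no filter (0.122), every probe set (0.369), array weights (0.0548) and without the medium to small L3-B array. It had no value among the upper 25% of genes or with the mean of probe sets. Etv1 passed between L6-R and L3-S under 13 of 15, and Runx3 under 2 of 13. Of the values of single factors under alternatives, 487 kept direction and side of the threshold, 8 lost the call, 8 gained one and 23 changed direction. Not all alternatives were separate. For a comparison of 2 codes, leaving out either array of the third code gave the same fit. Where only the 2 codes were compared, that fit was the same again. By size, leaving out either array of a code gave the same fit. All these counts therefore include repeated fits.

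Genes called between L6-R and L3-S numbered 289, against 137 with pseudocount 1, 107 with no filter, 115 in the upper 25%, 24 with every probe set, 633 with array weights, 841 with the Actb ratio, 653 with only the 2 codes compared, and 140 to 653 with 1 array left out. Between L3-S and L3-B, 93 became 46, 14, 21, 0, 48, 390 and 171 in that order of settings, 41 with the mean of probe sets and 61 to 202 with 1 array left out. Between L6-R and L3-B, 683 became 299 in the upper 25%, 278 with every probe set, 1413 with the Actb ratio and 356 to 995 with 1 array left out. By size, 0 became 0 to 1.

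Factors called between L3-S and L3-B were 1, but 0 with the larger pseudocount, no filter, upper 25%, mean of probe sets, every probe set and array weights, 2 with the Actb ratio (Meis2 added, adjusted p = 0.0414), and 0 to 1 with 1 array left out. Between L6-R and L3-B, 2 became 1 in the upper 25%, with the mean of probe sets and with every probe set, and 2 to 3 with 1 array left out. Between L6-R and L3-S, 1 became 2 with assignment by accession.

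No value that changed direction passed the test. By size Runx1 became 0.0107 with array weights, and Pou4f1 for L3-S against L3-B became -0.104 with the mean of probe sets. With 1 array left out, the differences by size ranged from -0.395 to 0.258 for Runx1, -0.135 to 0.502 for Maf, -0.241 to 0.0716 for Isl1 and -0.133 to 0.480 for Pou4f1. For L6-R against L3-S they ranged from -0.512 to 0.702 for Runx1, -0.279 to 0.402 for Maf, -0.245 to 0.0749 for Isl1 and -0.326 to 0.699 for Pou4f1. Pou4f1 ranged from -0.421 to 0.605 for L3-S against L3-B and from -0.128 to 0.685 for L6-R against L3-B, and Maf from -1.20 (adjusted p = 0.0291) to 0.0275 for L6-R against L3-B. The cause was not tested.

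Most Runx1 probe sets, the second Runx3 probe set, and the leading Runx3 probe set outside the L3-S pools lay near the background. Differences among such signals cannot be resolved. In L3-S the leading Runx3 probe set had 59.2 and 94.1, not far above 32.

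Size class was a term of the fit throughout, so the comparisons of codes were already made within size class.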
